A study of Caenorhabditis elegans with 10 samples.

Results

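The 10 genes described here encode transcription factors that assign founder cells and tissues of the Caenorhabditis elegans embryo: pal-1, med-1, end-1, pha-4, lin-26, elt-1, hlh-1, hnd-1, tbx-8 and tbx-9. They were matched by gene symbol in the platform annotation, and all 10 were found among the 17118 genes measured. They had 14 probe sets with 1 symbol and 0 with several, and each gene is represented by its brightest probe set on average across the 10 arrays. This choice used the level of a probe set and not the strain difference.

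The tested strain carries the xpa-1 deletion allele ok698 on chromosome I, and the wild type is Bristol N2. The xpa-1 product is the worm counterpart of human XPA, a damage-verification factor of nucleotide excision repair. Both strains were untreated, of mixed stage, and grown on agar at 20 degrees with Escherichia coli HT115(DE3) as food. The sample records list 3 to 4 days for every array, with no single value per collection. Each strain has 5 arrays, each from its own collection of worms from 10 to 20 plates. Every array is therefore a whole-animal pool that holds embryos, larvae and adults, and a factor made in a few embryonic cells is diluted by the RNA of all other cells. One deletion strain stands for loss of xpa-1, and no second allele was analysed here.

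In the C. elegans embryo the first cleavages produce founder cells, and maternal regulators give each one its own set of zygotic transcription factors. In the EMS lineage the maternal factor SKN-1 turns on the med genes, whose products turn on the end genes that specify the gut. PAL-1, a Caudal homeodomain protein, specifies the posterior C and D lineages, where it acts ahead of muscle and epidermal factors such as HLH-1, HND-1, TBX-8, TBX-9 and ELT-1. PHA-4 is the FoxA factor that gives cells pharyngeal identity, and LIN-26 is a zinc-finger protein needed for epidermal differentiation.

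None of the 10 factors passed the test for a difference between the strains. In limma, fitted over all 17118 genes, 0 of the 10 passed an adjusted p of 0.05, where 0.111% of all genes passed, and 0 of the 10 had an unadjusted p under 0.05, where 3.32% of all genes did. The limma adjusted p was 1 for every factor. All 10 had xpa-1 and N2 arrays that overlapped, as most genes do, since the 5 arrays of each strain stood clear of each other in only 0.374% of genes. Differences are xpa-1 minus N2 in log2 signal, with the standard error (SE) and the 95% interval of the limma fit, and ran from -0.39 for end-1 to 0.24 for tbx-9. For all 10 factors the 95% interval of the signal lay inside a 2-fold change in either direction, and for 7 it lay inside 1.5-fold. The dim factors med-1, end-1, hlh-1 and tbx-8 had a mean of 2 to 4 in log2, below every array median. Whether they were detected above background was not tested, so their intervals do not bound the change of the transcript. The same limit holds for hnd-1, whose mean of 4.12 was close to the array medians. The intervals of all 10 factors are per gene and not adjusted for the number of genes. In RNA from whole animals, fewer cells of a type and less RNA per cell cannot be told apart.

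The signal of a probe set depends on its probes, so levels are compared between arrays and strains for the same probe set. A higher mean signal of one gene than of another served only to choose which genes to name and is not read as a higher transcript level. The submitters' signals with a log2 value under 5 were whole numbers before the logarithm was taken, and higher values were not checked for this. The lowest log2 value in the file is 0. None of the 100 values of the 10 factors was 0, whereas 23.7% of all genes were at 0 on at least 1 array. For the dimmest factors the rounding is coarse. The unlogged signals of end-1 were whole numbers from 5 to 13, those of tbx-8 from 5 to 11 and those of hlh-1 from 7 to 11.

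**Figure D1:**
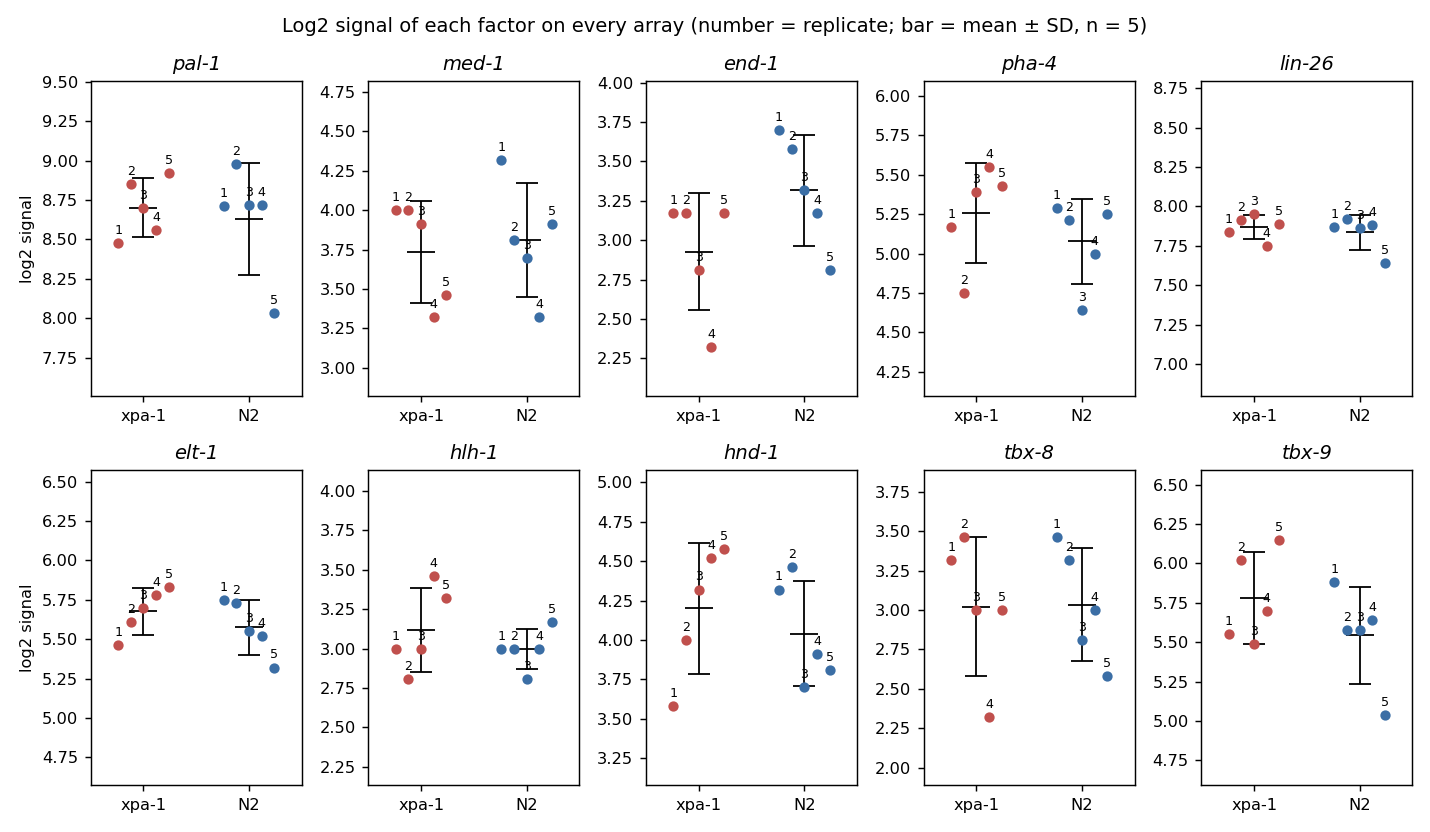
Log2 signal (vertical axis, every panel spanning the same log2 range) of each of the 10 factors on the 5 xpa-1 arrays (red, left) and the 5 N2 arrays (blue, right). Numbers are replicates and black bars give mean ± SD; the strains overlap in every panel, and N2 replicate 5 is the lowest N2 array for 6 factors.

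The strain labels were checked on the xpa-1 transcript. Its log2 signal did not exceed 1.58 on any xpa-1 array and did not fall below 6.38 on any N2 array, and the strains differed by -5.90 (limma adjusted p = 4.9e-05, SE 0.304). The mutant arrays were at or near the lowest value the file can hold, so the size of this difference depends on that floor. Array medians lay between 4.00 and 4.25 in log2. Across probe sets, arrays of 1 strain correlated with r from 0.953 to 0.984 and arrays of different strains with r from 0.959 to 0.979, as a description only.

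PAL-1 acts at the head of the posterior mesoderm and epidermis programme. Its transcript is made in the maternal germ line and kept from translation until the embryo divides. The pal-1 log2 signal (C38D4.6, chromosome III) was 8.48, 8.85, 8.70, 8.56 and 8.92 on xpa-1 replicates 1 to 5, and 8.71, 8.98, 8.72, 8.72 and 8.03 on N2 replicates 1 to 5. The highest and the lowest of the 10 arrays were both N2 arrays, and replicate 5 stood alone below the others. The means were 8.70 ± 0.19 in xpa-1 and 8.63 ± 0.36 in N2 (SD, n = 5 each). The difference of 0.07 (SE 0.173, interval -0.32 to 0.46) did not pass limma, and it was -0.08 without N2 replicate 5, a turn in sign.

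The 2 further probe sets of pal-1 were read as a check within the gene. One differed by 0.13 (SE 0.139), with means of 7.92 in xpa-1 and 7.78 in N2. The other differed by 0.16 (SE 0.178), with means of 7.94 in xpa-1 and 7.77 in N2. N2 replicate 5 was the lowest of all 10 arrays on each of them, at 7.43 and 7.18, so the low reading of this array was shared by the 3 pal-1 probe sets.

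MED-1 and END-1 are GATA-type zinc-finger factors that act in succession in the endomesoderm. The med-1 log2 signal (T24D3.1, chromosome X) was 4.00, 4.00, 3.91, 3.32 and 3.46 on the xpa-1 arrays, and 4.32, 3.81, 3.70, 3.32 and 3.91 on the N2 arrays. Both strains shared the same lowest value. The difference was -0.07 (SE 0.207, interval -0.54 to 0.39), and leaving out 1 array gave -0.20 to 0.05. The genome holds a near-identical second copy, med-2, which had no probe set with its symbol alone here, so the med-1 signal may include its transcripts.

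The end-1 transcript, which specifies the gut founder cell, had the largest difference of the 10 in size. Its log2 signal (F58E10.2, chromosome V) was 3.17, 3.17, 2.81, 2.32 and 3.17 on the xpa-1 arrays, and 3.70, 3.58, 3.32, 3.17 and 2.81 on the N2 arrays. N2 replicates 1, 2 and 3 read above every xpa-1 array, but N2 replicates 4 and 5 lay within the xpa-1 range. The means were 2.93 ± 0.37 in xpa-1 and 3.32 ± 0.35 in N2 (SD, n = 5 each). The difference of -0.39 (SE 0.218, interval -0.88 to 0.10) had an unadjusted p of 0.109 in limma and p = 0.143 in the two-sided exact permutation test, whose smallest possible p is 0.00794 with 5 arrays against 5. Leaving out 1 array gave differences between -0.51 and -0.24. The lowest came without N2 replicate 5, where the unadjusted limma p was 0.0368. With limma array weights and all 10 arrays the end-1 difference was -0.45, with an unadjusted limma p of 0.0495. No other factor had an unadjusted p under 0.05 in any setting tried. When 16 was added to every unlogged signal, the end-1 difference was -0.14, since an offset shrinks changes of dim probe sets.

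Among the partners of end-1, end-3, which acts in parallel with it and lies on chromosome V with 4 protein-coding genes between them, had a mean of 1.88 ± 1.11 in xpa-1 and 1.43 ± 0.43 in N2 (SD, n = 5 each). Its difference was 0.45 (SE 0.498), opposite in sign to that of end-1, and did not pass limma (adjusted p = 1). It read 0 on xpa-1 replicate 4, the array on which end-1 was lowest. The later gut factor elt-2, a GATA factor that maintains intestinal gene expression, had a mean of 5.32 ± 0.24 in xpa-1 and 5.34 ± 0.30 in N2 (SD, n = 5 each).

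For pha-4 (F38A6.1, chromosome V) the log2 signal was 5.17, 4.75, 5.39, 5.55 and 5.43 on the xpa-1 arrays, and 5.29, 5.21, 4.64, 5.0 and 5.25 on the N2 arrays. Replicates 3, 4 and 5 of xpa-1 were above every N2 array, while xpa-1 replicate 2 was below all N2 arrays except replicate 3. The difference was 0.18 (SE 0.178, interval -0.22 to 0.58), and it was 0.07 without N2 replicate 3 and 0.31 without xpa-1 replicate 2. The second pha-4 probe set differed by 0.09 (SE 0.124), with N2 replicate 3 again the lowest array. The probe set standing for the gene belongs to a class (_s_at) in which probes may detect more than 1 transcript, as do those of elt-1 and tbx-9.

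The epidermal factors LIN-26 and ELT-1 had the narrowest intervals. The lin-26 log2 signal (F18A1.2, chromosome II) was 7.84, 7.91, 7.95, 7.75 and 7.89 on the xpa-1 arrays, and 7.87, 7.92, 7.86, 7.88 and 7.64 on the N2 arrays. All 10 arrays fell within 0.31 in log2, or 1.24-fold, and the difference was 0.03 (SE 0.071, interval -0.13 to 0.19), or -0.01 without N2 replicate 5. A second lin-26 probe set differed by 0.05 (SE 0.136), and N2 replicate 5 was the lowest array on both.

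ELT-1, a GATA factor needed to make epidermal cells at all, was measured at 5.46, 5.61, 5.70, 5.78 and 5.83 in log2 on the xpa-1 arrays, and at 5.75, 5.73, 5.55, 5.52 and 5.32 on the N2 arrays (W09C2.1, chromosome IV). The top 2 arrays were of xpa-1 and the lowest was N2 replicate 5, with the rest intermixed. The difference was 0.10 (SE 0.105, interval -0.13 to 0.34), and it was 0.04 without N2 replicate 5.

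HLH-1, the worm MyoD, and HND-1, a Hand-family factor, act together in body wall muscle fate. The hlh-1 log2 signal (B0304.1, chromosome II) was 3.00, 2.81, 3.00, 3.46 and 3.32 on the xpa-1 arrays, and 3.00, 3.00, 2.81, 3.00 and 3.17 on the N2 arrays. Replicates 4 and 5 of xpa-1 were the highest of the 10. The difference was 0.12 (SE 0.13, interval -0.17 to 0.42), and it was 0.04 when replicate 4 of xpa-1 was left out and 0.20 when replicate 2 was.

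The hnd-1 log2 signal (C44C10.8, chromosome X) was 3.58, 4.00, 4.32, 4.52 and 4.58 on the xpa-1 arrays, and 4.32, 4.46, 3.70, 3.91 and 3.81 on the N2 arrays. The lowest and the highest arrays were both of xpa-1, so the xpa-1 arrays enclosed the N2 arrays. The difference was 0.16 (SE 0.226, interval -0.35 to 0.67), and leaving out 1 array gave 0.07 to 0.32.

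The T-box genes tbx-8 and tbx-9 encode related factors with overlapping roles in epidermal and muscle morphogenesis, and no protein-coding gene lies between them on chromosome III in assembly WBcel235. The tbx-8 log2 signal (T07C4.2) was 3.32, 3.46, 3.00, 2.32 and 3.00 on the xpa-1 arrays, and 3.46, 3.32, 2.81, 3.00 and 2.58 on the N2 arrays. The difference was -0.01 (SE 0.241, interval -0.56 to 0.53), and it was 0.16 without xpa-1 replicate 4, the lowest array.

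The tbx-9 signal (T07C4.6) was 5.55, 6.02, 5.49, 5.70 and 6.15 on the xpa-1 arrays, and 5.88, 5.58, 5.58, 5.64 and 5.04 on the N2 arrays. Replicates 2 and 5 of xpa-1 were above every N2 array and N2 replicate 5 was below every xpa-1 array. The difference was 0.24 (SE 0.182, interval -0.17 to 0.65), with p = 0.246 in the two-sided exact permutation test, and it was 0.11 without N2 replicate 5. Whether tbx-8 and tbx-9 differed from each other in this was not tested.

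**Figure D2:**
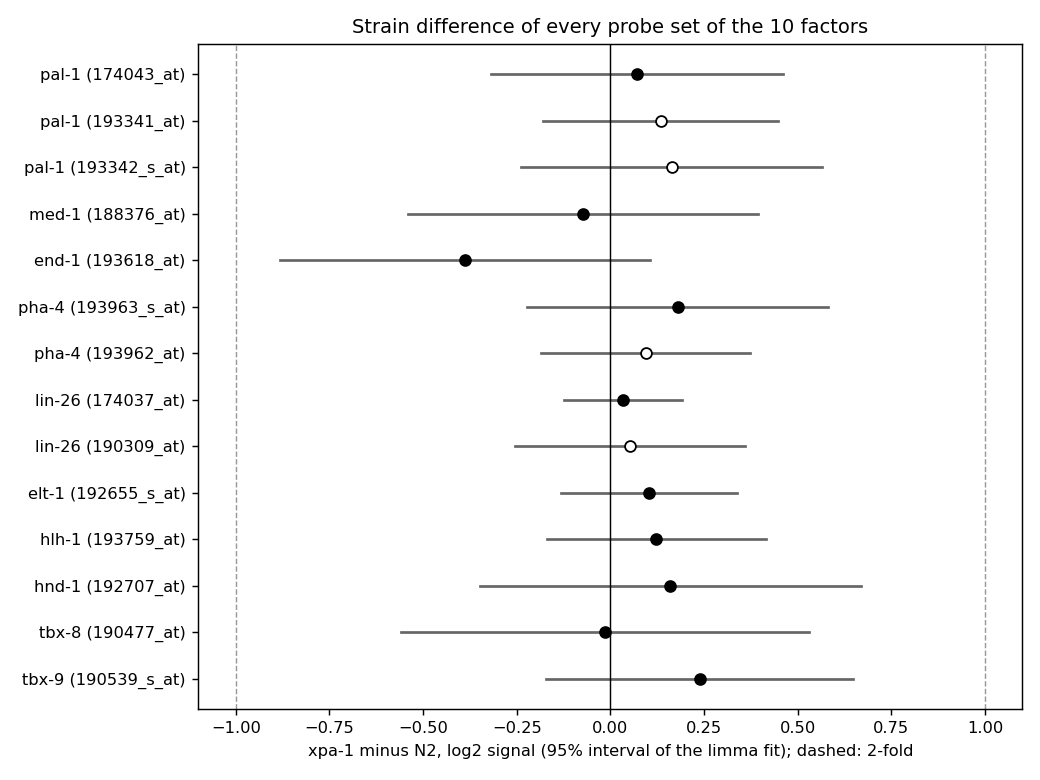
Strain difference (xpa-1 minus N2, log2 signal) of the 14 probe sets of the 10 factors, with the 95% interval of the limma fit over all probe sets; filled points stand for their gene and open points are further probe sets of pal-1, pha-4 and lin-26. Every interval crosses 0 and lies inside the dashed lines at a 2-fold change.

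Over the 10 factors the median difference was 0.09, against 0.02 over all genes, and 7 of 10 were above 0, against 54.7% of all genes. Without N2 replicate 5 the median of the factors was 0.01. The size of the difference exceeded the pooled within-strain SD for 1 factor, end-1.

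The spread between arrays of a strain was compared next. The standard deviation (SD) in log2 had a median of 0.30 over the 10 factors in xpa-1 and 0.32 in N2, and it was lower in xpa-1 for 5 of the 10, where 54.7% of all genes had the lower SD in xpa-1. The ratio of SDs was farthest below 1 for pal-1, with 0.19 in xpa-1 and 0.36 in N2, and farthest above 1 for hlh-1, with 0.26 in xpa-1 and 0.13 in N2. A fit of limma to the absolute deviations from the strain median called 0 of the 10 factors and 0% of all genes at an adjusted p of 0.05. At an unadjusted p under 0.05 it called 0 of the 10 and 0.888% of all genes. The smallest spread p of a factor was that of hlh-1, 0.246 unadjusted in limma and 0.325 in the exact permutation test of its deviations. With 5 arrays per strain the 95% interval of a single SD ratio spans a factor of 3.1 in each direction. This comes from the F distribution, for normal values and without adjustment, and a smaller ratio cannot be told from equal spreads by it. The limma fit adjusted over all genes is another test. The SD ratio it would need for a call is not given here and may be larger, so 0 calls do not bound the spread differences.

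The comparison of spreads moved with single arrays, most of all with N2 replicate 5. That array was the lowest N2 array for pal-1, end-1, lin-26, elt-1, tbx-8 and tbx-9, which is 6 of 10, against 27.5% of all genes. Among the 6 factors with a mean of at least 4 it was the lowest for 4, against 43.2% of all genes with such a mean. It fell below the mean of the other N2 arrays by 0.75 for pal-1, by 0.63 for end-1 and for tbx-9, by 0.57 for tbx-8, by 0.32 for elt-1 and by 0.24 for lin-26. Without it the SD was lower in xpa-1 only for med-1, 1 of the 10, against 43.8% of all genes. The median log2 ratio of the SDs (xpa-1 over N2) of the factors was 0.0032 with all arrays and 0.54 without N2 replicate 5. Over all genes it was -0.11 with all arrays and 0.10 without that array. For the factors, leaving out another array gave medians from -0.33 (without xpa-1 replicate 4) to 0.20 (without N2 replicate 1), so their median has no settled direction. For lin-26, the SD of 0.08 in xpa-1 stood against 0.11 over 5 N2 arrays and 0.03 over 4.

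**Figure D3:**
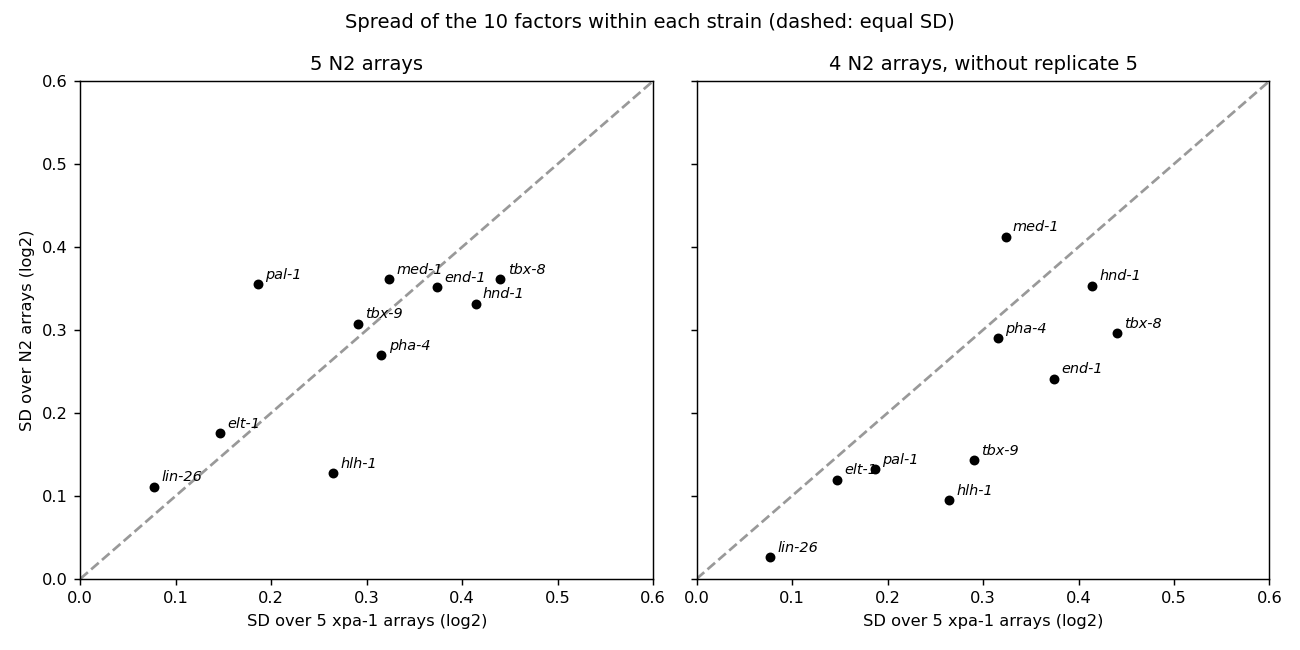
SD of the log2 signal of each factor over 5 xpa-1 arrays (horizontal axis) against its SD over N2 arrays (vertical axis), with all 5 N2 arrays on the left and without N2 replicate 5 on the right. With all arrays 5 of 10 factors lie above the dashed line of equal SD; without N2 replicate 5 only med-1 does.

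Set against genes in the same broad class of signal, the factors varied neither uniformly more nor less. The median SD falls from class to class, so the counts may depend on where a factor lies within its class. The hnd-1 mean of 4.12, for example, is near the lower end of its class. The pooled within-strain SD was above the median of its class for 0 of 4 factors with a mean of 2 to 4 in log2 (class median 0.41 over 3986 genes), for 3 of 4 with a mean of 4 to 6 (0.26 over 3624 genes) and for 1 of 2 with a mean of 6 to 9 (0.19 over 4446 genes). The pooled SD ran from 0.10 for lin-26 to 0.40 for tbx-8.

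Because the cultures were of mixed stage, lists of stage markers were summed up on each array as a mean log2 signal. The early embryo list (38 of 47 genes measured) had means from 2.68 to 2.88 on the xpa-1 arrays and from 2.45 to 3.00 on the N2 arrays. Its 1 member at 0 on every array was sdz-34, and 11 were at 0 on some array. The oocyte list (10 of 10) ranged from 9.86 to 10.21 in xpa-1 and from 9.57 to 10.24 in N2, and the adult yolk list (4 of 5) from 11.48 to 11.69 in xpa-1 and from 11.27 to 11.76 in N2. The molting larva list (9 of 9) ranged from 5.0 to 6.16 in xpa-1 and from 4.75 to 6.38 in N2, and the sperm list (7 of 9) from 3.16 to 4.30 in xpa-1 and from 2.33 to 4.15 in N2.

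Every stage list had members with values above 0, but detection above background was not tested. The early embryo means, from 2.45 to 3.00, lay below every array median. The list means differed between strains by 0.08 or less. N2 replicate 5 had the lowest early embryo, oocyte and adult yolk values and the highest molting larva value of the 10 arrays, and N2 replicate 1 the highest early embryo, oocyte and yolk values and the lowest molting larva value. The part of stage make-up in the spread of the factors was not tested apart from the relations given next.

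Relations within strains were computed on values centred on the strain mean over 10 arrays, for 45 pairs of factors and 50 pairs of a factor and a stage list. Of these 95 relations, 7 had an adjusted p under 0.05 in the two-sided exact permutation test within strains (Benjamini-Hochberg over the 95). The factor closest to the early embryo list was elt-1, with Pearson r = 0.908 (permutation p = 0.00014, adjusted p = 0.0132) and Spearman rho = 0.976 (permutation p = 0.00028, adjusted p = 0.0264), and r = 0.881 without the 2 arrays farthest from the median of the list. This was the only relation past the threshold by both measures. Every r without 2 arrays kept the centring on the strain means of all 10 arrays. The r values without N2 replicate 5 alone, given below, were centred again on the arrays left.

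Of the other relations past the threshold in r, tbx-9 ran against the molting larva list (r = -0.892, permutation p = 0.00278, adjusted p = 0.0396, rho = -0.894 with permutation p = 0.00167, and r = -0.83 without the 2 outermost arrays). It ran with the oocyte list (r = 0.867, permutation p = 0.00236, adjusted p = 0.0396, rho = 0.857 with permutation p = 0.005, and r = 0.702 without the 2 outermost arrays). The yolk list went with elt-1 (r = 0.877, permutation p = 0.00292, adjusted p = 0.0396, rho = 0.83 with permutation p = 0.0105, and r = 0.718 without 2 arrays). It also went with pal-1 (r = 0.92, permutation p = 0.00222, adjusted p = 0.0396, rho = 0.705 with permutation p = 0.0365), but there r was 0.589 without N2 replicate 5 and xpa-1 replicate 1, so this relation rests on those arrays.

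Of the pairs of factors, 2 passed: end-1 with tbx-8 (r = 0.92, permutation p = 0.0025, adjusted p = 0.0396, rho = 0.849 with permutation p = 0.00417, and r = 0.876 without 2 arrays) and elt-1 with hnd-1 (r = 0.886, permutation p = 0.00174, adjusted p = 0.0396, rho = 0.83 with permutation p = 0.00806, and r = 0.825 without 2 arrays). Pairs in which one factor is described above as acting ahead of the other did not pass. For med-1 with end-1, r was 0.512 (permutation p = 0.16, adjusted p = 0.317, rho = 0.585). For pal-1 it was 0.785 with tbx-9 (permutation p = 0.0244, adjusted p = 0.129, rho = 0.729), 0.738 with elt-1 (permutation p = 0.026, adjusted p = 0.13, rho = 0.511) and 0.522 with tbx-8 (permutation p = 0.121, adjusted p = 0.273, rho = 0.372). Without the 2 outermost arrays, N2 replicate 5 among them, r was 0.54 for pal-1 with tbx-9 and 0.213 for pal-1 with elt-1. The remaining pairs gave r = -0.303 for pal-1 with hlh-1 (permutation p = 0.305, adjusted p = 0.5, rho = -0.154) and r = 0.482 for pal-1 with hnd-1 (permutation p = 0.16, adjusted p = 0.317, rho = 0.535). The T-box neighbours tbx-8 and tbx-9 had r = 0.479 (permutation p = 0.199, adjusted p = 0.349, rho = 0.457).

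Leaving out any 1 array left between 0 and 2 of the 95 past the threshold, and 0 remained without N2 replicate 5. A permutation test on 9 arrays has less power than one on 10, so a lost call alone does not show that the relation rests on the array left out. Without N2 replicate 5 the permutation p rose from 0.00292 to 0.0146 for elt-1 with the yolk list, where r did not fall. It rose from 0.00014 to 0.00903 for elt-1 with the early embryo list, where r did fall. Without N2 replicate 5, r was 0.866 for elt-1 with the early embryo list, 0.888 for elt-1 with the yolk list, 0.967 for elt-1 with hnd-1, 0.903 for end-1 with tbx-8 and -0.891 for tbx-9 with the molting larva list, each with an adjusted permutation p of 0.145. It was lower for tbx-9 with the oocyte list (r = 0.748, adjusted permutation p = 0.145) and for pal-1 with the yolk list (r = 0.705, adjusted permutation p = 0.159). Centring each array on its median raised the count to 28. That step subtracts the same number from both sides of every relation.

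**Figure D4:**
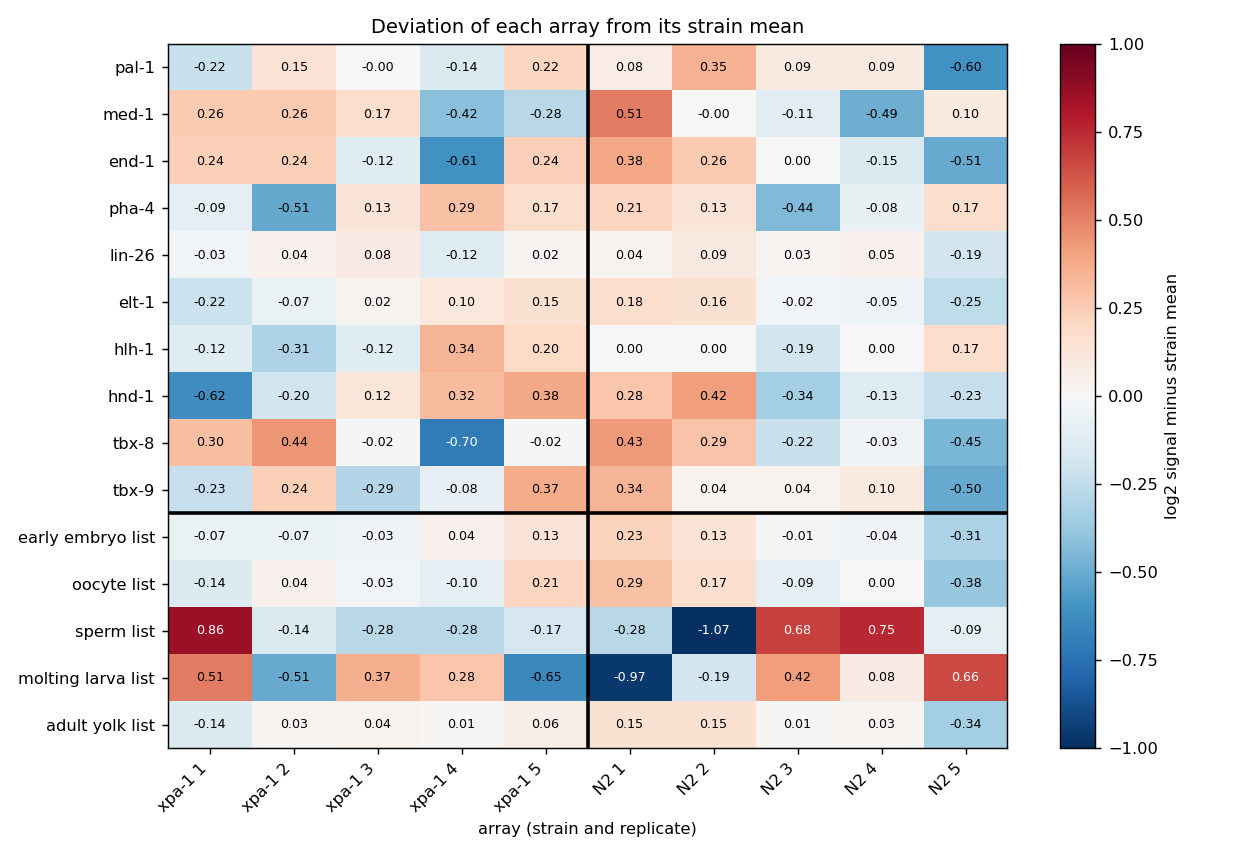
Deviation of the log2 signal from its strain mean (colour and printed value) for the 10 factors and the means of 5 stage lists (rows) on each array (columns, xpa-1 left and N2 right). N2 replicate 5 is low for pal-1, end-1, tbx-8 and tbx-9 and for the early embryo, oocyte and yolk lists, and high for the molting larva list.

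The genes most like each of the 5 factors with a mean of at least 5 were found by Pearson r of strain-centred values over the 10 arrays, among 6877 genes with such a mean, as a description with no test. For pal-1 they were bcas-2 (r = 0.98) and Y106G6H.6 (r = 0.976). For elt-1 they were the gap junction gene inx-3 (r = 0.991) and skr-10 (r = 0.977), and for tbx-9 the cohesin gene him-1 (r = 0.99) and the kinetochore gene him-10 (r = 0.989). For lin-26 they were frg-1 (r = 0.963) and F59C6.16 (r = 0.947), and for pha-4 toe-4 (r = 0.965) and C06E1.1 (r = 0.931). All of these share the same arrays, and the highest of many r values is high by selection.

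Genes that act before, beside and after the 10 factors did not pass either. Of 90 measured related genes in 10 lists, 0 rose and 0 fell past an adjusted limma p of 0.05, and 3 had an unadjusted p under 0.05, which is 3.33% against 3.32% of all genes. Their median difference was -0.004, and 43 of the 90 were above 0.

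The maternal regulators that place the factors in their lineages (27 genes) had a median of 0.04, with 22 above 0. Without N2 replicate 5 the median was -0.03, with 9 above 0, so this direction rested on that array. The member with the smallest p was skn-1, the activator of the med genes, at 6.68 ± 0.18 in xpa-1 and 6.81 ± 0.11 in N2 (SD, n = 5 each, difference -0.13, SE 0.099). The member with the highest mean signal, pos-1, an RNA-binding protein of the posterior lineage, was at 10.30 ± 0.10 in xpa-1 and 10.28 ± 0.20 in N2.

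Other zygotic factors showed single dim or moderate members with an unadjusted p under 0.05 and none past adjustment. Of 8 pharynx factors the smallest p was that of pha-1, with a log2 signal of 0, 1.58, 0, 1.58 and 1.58 on the xpa-1 arrays and all N2 arrays listed at 0 (exact permutation p = 0.167, limma p = 0.0279, adjusted p = 1). Of 10 epidermis factors it was ceh-16, the Engrailed homologue of the seam cells, at 3.80 ± 0.31 in xpa-1 and 3.34 ± 0.36 in N2 (difference 0.46, SE 0.201). Of 7 neural factors it was the POU gene unc-86, at 4.64 ± 0.21 in xpa-1 and 4.32 ± 0.22 in N2 (difference 0.32, SE 0.135).

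Of 9 muscle and mesoderm factors the smallest p belonged to fozi-1, at 2.86 ± 0.31 in xpa-1 and 3.15 ± 0.26 in N2 (difference -0.29, SE 0.174). The members of these lists with the highest mean signal were lag-1 (difference 0.03), die-1 (0.01), hlh-2, a common partner of bHLH factors (0.19), and mef-2 (0.14).

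The differentiated products downstream had medians of -0.12 for 6 body wall muscle genes, -0.07 for 5 pharynx genes, -0.06 for 6 intestine genes and -0.04 for 7 epidermis genes, and 0 of these 24 passed limma. All 6 muscle products were below 0, while hlh-1 and hnd-1 were above 0. The 9 other muscle and mesoderm factors had a median of -0.10, with 3 above 0, so muscle factors as a whole did not run opposite to the products. Without N2 replicate 5 the medians were -0.06 for the muscle products, 0.03 for the pharynx products and 0.07 for the neural factors (0.19 with all arrays), so the direction of the pharynx products turned. They were 0.00025 for the intestine products and -0.0035 for the epidermis products there, both close to 0. The paramyosin gene unc-15 was at 9.90 ± 0.22 in xpa-1 and 10.03 ± 0.20 in N2 (difference -0.13, SE 0.13). The pharyngeal myosin gene myo-1 differed by -0.22 (SE 0.334), the gut actin gene act-5 by -0.15 (SE 0.126) and the gut protease gene asp-1 by -0.01 (SE 0.052). In epidermis the collagen gene dpy-13 differed by -0.04 (SE 0.128) and che-14 by -0.11 (SE 0.16).

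**Figure D5:**
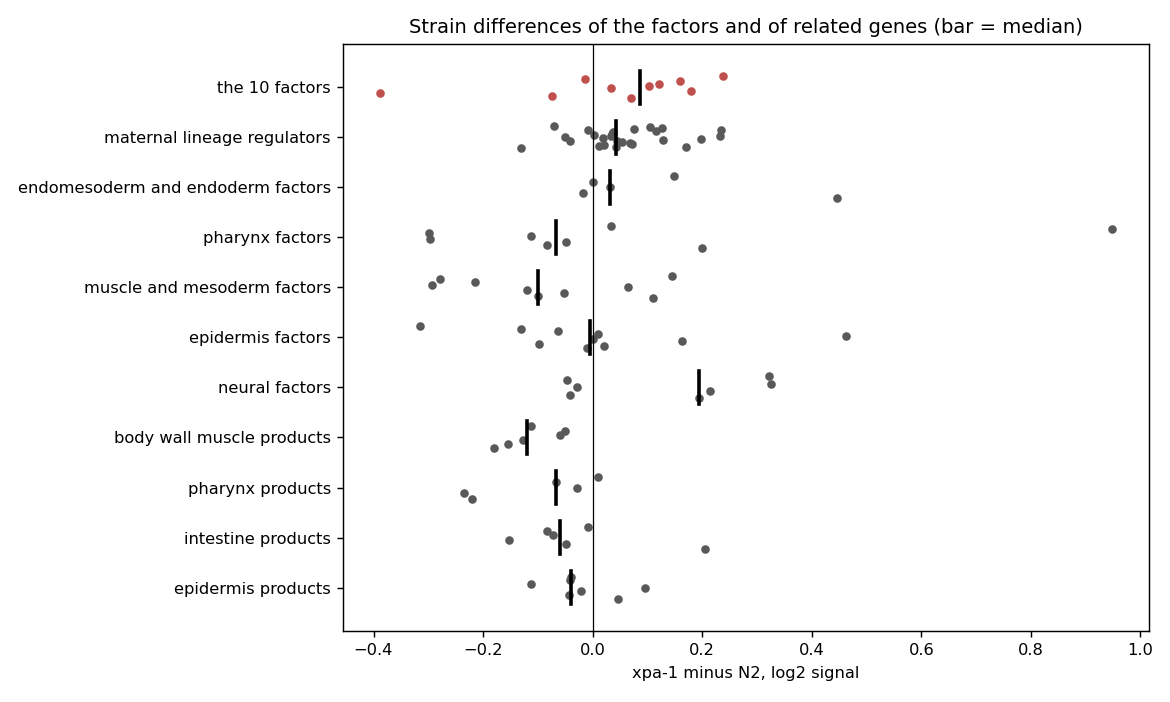
Strain differences (xpa-1 minus N2, log2 signal) of the 10 factors (red) and of the measured genes in 10 lists of related genes (grey), with a bar at each median. The medians lie between -0.12 and 0.19, and the point farthest to the right is pha-1, which was listed at 0 on all N2 arrays.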

How the data were processed

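The authors deposited log2 probe set signals for 10 arrays labelled by a 3' in vitro transcription kit. Per the submitters' processing notes they came from Affymetrix Expression Console; background correction and scaling: not given in the sources used here. Low values (under 5) were all the log2 of a whole number within 0.005. No read depth exists, and the number of arrays limits precision. Replicates were separate collections of worms, and the labels name no batch.

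After 77 control probe sets were left out, 20766 of 22548 probe sets had 1 symbol. The values were fitted without further scaling in limma 3.58.1 (R 4.3.3), strain as the only term, Benjamini-Hochberg over 17118 genes, threshold 0.05. Spread was fitted as absolute deviations from the strain median. Exact permutation tests used all 252 divisions for single genes and 14400 within-strain orders for correlations. Fits and permutations were tested on simulated data. RefSeq assembly WBcel235 supplied loci and gene order only.

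The 10 factors, the related and stage lists, and the rule for named genes were chosen with earlier results of these data known. The rule named xpa-1, all 10 factors, of each related list the members past the threshold or, with none, the smallest p and the brightest, and the 2 genes most like each factor with a mean of at least 5. end-3 has the smallest p and elt-2 is the brightest of 5 endoderm genes.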

Additional observations from a re-analysis of the deposited data

Results flagged for a closer look

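Single arrays far from the other 4 of their strain were looked for in 32 groups of 5 values (xpa-1, the 10 factors and 5 stage lists in both strains) with Dixon's criterion, and 5 were found. Chance gives about 1 in 20 for a single group. The groups share the same arrays and are not independent, and all 5 were in N2 replicate 5 or xpa-1 replicate 1. In N2 replicate 5 the pal-1 log2 signal was 8.03, against 8.71 to 8.98 on the other N2 arrays, that of lin-26 was 7.64, against 7.86 to 7.92, and the adult yolk list mean was 11.27, against 11.62 to 11.76. In xpa-1 replicate 1 the sperm list mean was 4.30, against 3.16 to 3.29 on the other xpa-1 arrays, and the adult yolk list mean was 11.48, against 11.63 to 11.69. The factors in that xpa-1 array deviated from their strain mean by -0.07 on average, and in N2 replicate 5 by -0.23.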

How the results depend on the processing

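In 20 alternatives, 0 of the factors and 0 of the related genes measured in them passed limma, and in the 17 run for spread 0 factors passed. Only 6 factors were tested among genes with a mean of at least 4. With only probe sets outside the classes matching several transcripts, 8 were tested. Of 194 differences of single factors, 9 had the opposite sign to the main value, in 4 factors (pal-1, med-1, lin-26 and tbx-8), none of which was called. Over all genes 19 passed, against 12 with only genes of a mean of at least 4 and 5 with the replicate block; leaving out 1 array gave 13 to 21. Same-numbered arrays of the strains correlated in their deviations with r from -0.266 to -0.031, so the numbers do not pair them, and the block changed no call of a factor. The relations past the threshold numbered 7, 28 with each array centred on its median, and 0 to 2 when 1 array was left out. The median difference of the factors ranged from 0.01 (without N2 replicate 5) to 0.14 (without xpa-1 replicate 1). The xpa-1 transcript passed in every setting that measured it; it is below the filter at a mean of 4. Dim probe sets such as end-1, tbx-8 and hlh-1 limit what the rounded signals can show.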
